A study of Mus musculus with 8 samples.

Results

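WNT ligands are secreted signalling proteins, and 10 of them were named for description in the growing molar root of the mouse. They were found in the deposited table by gene symbol. Of the 10, 9 were measured among 17631 genes: Wnt3a, Wnt4, Wnt5a, Wnt5b, Wnt6, Wnt7b, Wnt10a, Wnt10b and Wnt11. Wnt16 was not analysed here. RNA came from the apical part of lower first molars of C57BL/6 mice at postnatal day 7.5. Control animals were Runx2fl/fl, with floxed alleles of the bone transcription factor Runx2, and mutant animals were Gli1-CreERT2;Runx2fl/fl, with 4 libraries in each group. Gli1-CreERT2 is a recombinase that tamoxifen activates and that is made where Gli1 is active. The labels give the same tamoxifen injection for both groups, 1.5 mg per 10 g of body weight at postnatal day 3.5. The driver is carried by the mutant group alone, so its effect and that of Runx2 loss cannot be told apart.

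A WNT protein is made with a fatty acid on a conserved serine, which the acyltransferase Porcn attaches and the secreted enzyme Notum removes. The carrier Wls brings the acylated ligand to the cell surface, where Frizzled receptors bind it together with LRP5 or LRP6, or with ROR2 or RYK. Wnt3a, Wnt10a and Wnt10b are best known for stabilising beta-catenin, and Wnt5a, Wnt5b and Wnt11 for signalling to the cytoskeleton without it. In the early tooth Wnt4, Wnt6, Wnt7b, Wnt10a and Wnt10b are known as genes of the epithelium, and Wnt5a as a gene of the mesenchyme.

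The stretch of coding sequence around that serine is shown for the 9 ligands, because it is the site that makes them substrates of Porcn and Notum. Each stretch is 24 bases (8 codons) of the sense strand from GENCODE M21 on GRCm38, with the serine codon in capitals. All 9 lie in coding exons.
Wnt3a, codon 209, chr11:59250053-59250076, minus strand, exon 4: tgccacgggctaTCTggcagctgt
Wnt10b, codon 253, chr15:98772878-98772901, minus strand, exon 4: tgccatggaacgTCAggcagctgc
Wnt10a, codon 268, chr1:74803156-74803179, plus strand, exon 4: tgccacggcaccTCAggcagctgc
Wnt6, codon 227, chr1:74784172-74784195, plus strand, exon 4: tgccatgggcttTCGggttcctgc
Wnt4, codon 212, chr4:137296345-137296368, plus strand, exon 5: tgtcacggggtgTCGggctcctgc
Wnt7b, codon 213, chr15:85537812-85537835, minus strand, exon 4: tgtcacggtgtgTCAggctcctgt
Wnt5a, codon 244, chr14:28522515-28522538, plus strand, exon 5: tgtcatggagtgTCTggctcctgt
Wnt5b, codon 236, chr6:119433800-119433823, minus strand, exon 5: tgtcacggagtcTCCgggtcctgc
Wnt11, codon 215, chr7:98850260-98850283, plus strand, exon 4: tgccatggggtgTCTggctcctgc
Over the 36 pairs of these ligands, 14 to 21 of the 24 bases were identical, with a median of 17. The longest run of identical bases between transcripts of 2 of the ligands was 29 nt, between Wnt5a and Wnt5b. That is shorter than the 50 nt of a read, so no read of full length matches both exactly.

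The table holds the authors' 2 group means per gene, with no values per library. The spread between libraries, a standard error and the number of libraries with a given direction therefore cannot be given for any ligand. The means are normalised signal on a linear scale, and the depth of each library is unknown. The p-values, adjusted p-values, group means and folds of single genes below are those of the authors' deposited table, and log2 ratios (mutant over control) were computed from its ratios. Exceptions are the p-values after the GC and length subtraction and an adjustment over fewer genes, which were computed here from the authors' p-values. The labels do not say whether a library is 1 animal, so the p-values rest on variation from library to library that may be partly technical. In bulk tissue, fewer cells of a type and less RNA per cell cannot be told apart.

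The tissue held the cell types from which these ligands are known. The odontoblast gene Dspp had a control mean of 7714, the epithelial keratin gene Krt14 of 973.2 and the mesenchymal gene Msx1 of 147.8. The 10 ameloblast markers, genes of the enamel-forming epithelium, took 25.01% of the summed control means and 18.7% of the summed mutant means, so the sampled tissue was not root alone. For Runx2 the authors' deposited table gives 105.5 in controls and 65.1 in mutants (1.62-fold lower, adjusted p = 0.0646). For Gli1 the authors' deposited table gives 38.8 and 19.9 (adjusted p = 0.0228).

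Wnt6, Wnt10a, Wnt4 and Wnt5a were the abundant ligands of the apical molar, and together they made up 85.3% of the ligands' summed control level per kb of exon. Levels of different genes are compared per kb of exon, which divides the deposited mean by the exonic length of the gene. On that scale the control levels were 43.3 for Wnt6, 36.7 for Wnt10a, 33.5 for Wnt4 and 26.05 for Wnt5a. A gap separated these 4 ligands from the other 5, which lay between 3.52 and 6.66. The scarcer ligands were, in falling order, Wnt5b (6.66 per kb), Wnt3a (6.36), Wnt7b (3.78), Wnt11 (3.66) and Wnt10b (3.52). Neighbours in this order could not be tested against each other, because no spread between libraries is known. In the mutant the level per kb was 35.04 for Wnt6, 32.4 for Wnt10a, 30.6 for Wnt5a and 28.8 for Wnt4, so that Wnt5a stood above Wnt4 there, and Wnt7b (4.85) stood above Wnt3a (3.76).

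The order depended on the division by length. As deposited, Wnt5a had the highest control mean of the 9 (203.8), followed by Wnt4 (140.4), Wnt6 (94.9) and Wnt10a (90.7). The same 4 ligands stood apart from the rest of the 9. The exons of Wnt5a cover 7823 bases and those of Wnt6 cover 2192. How the authors normalised is not given in the sources used here, so it is not known whether length had already been divided out. The median control mean of protein-coding genes rose from 15.2 in the eighth with the shortest transcripts to 32.2 in the eighth with the longest. Among all genes of the table, the 4 abundant ligands lay above the 90th percentile of control level as deposited (91.0 for Wnt10a to 96.9 for Wnt5a), and the other 5 between 51.9 and 60.5.

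**Figure D1:**
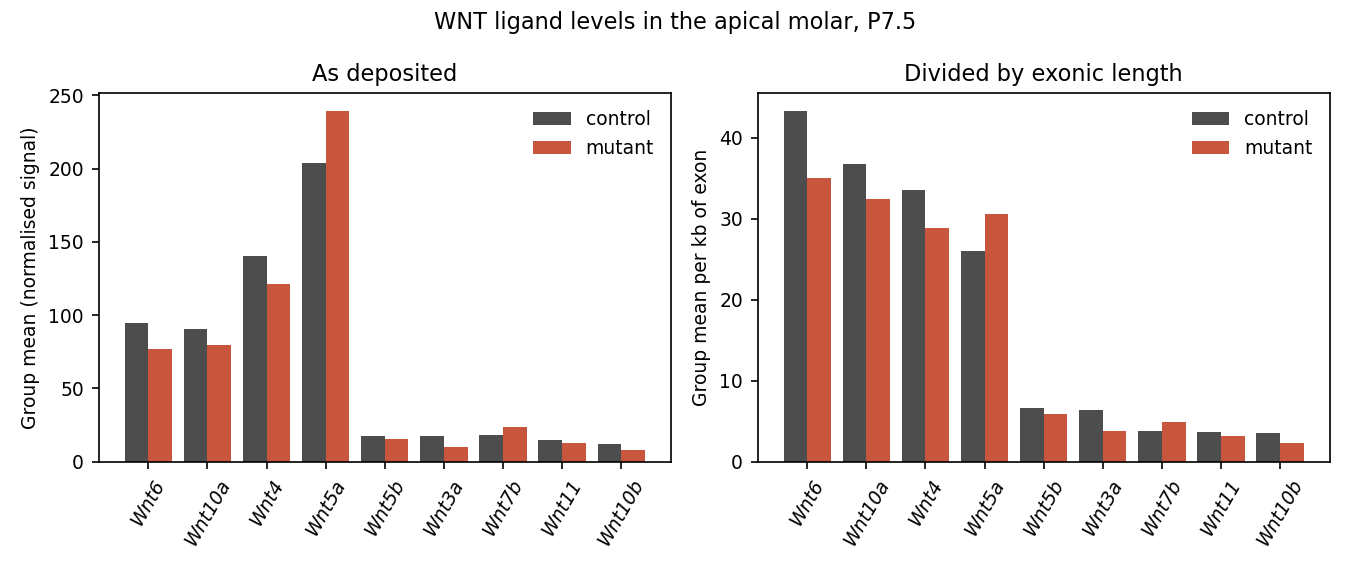
Group means of the 9 WNT ligands in control (grey) and mutant (red) molars, as deposited (left, normalised signal) and per kb of exon (right), each bar a mean of 4 libraries for which no error is given. Wnt6, Wnt10a, Wnt4 and Wnt5a stand above the other 5 on both scales, and the Wnt5a bar is the tallest as deposited and the 4th in the control per kb.

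Between genotypes, 7 of the 9 ligands had a lower mean in the mutant and 2, Wnt5a and Wnt7b, a higher one, and Wnt10a among the 7 moved to a log2 ratio of 0.00 in the GC subtraction described below. None of the 9 passed an adjusted p of 0.05 in the authors' Partek gene-specific analysis, where 0.788% of all genes passed, 0.471% as higher and 0.318% as lower in the mutant. At an unadjusted p under 0.05 there were 5 of 9, of which 3 were lower (Wnt3a, Wnt10b, Wnt6) and 2 higher (Wnt5a, Wnt7b). Over all genes, 19.3% had an unadjusted p under 0.05, made up of 9.89% higher and 9.4% lower, and 49.4% had a lower mean in the mutant. The median log2 ratio of the 9 ligands was -0.21, beside 0.00 over all genes. It was -0.10 after the GC and length subtraction and -0.08 with each group scaled to the sum of its means. That scaling added 0.14 to the log2 ratio of every gene, so the distance of the ligands from all genes stayed the same. The ligands were chosen with these results in view, so their counts are a description.

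**Figure D2:**
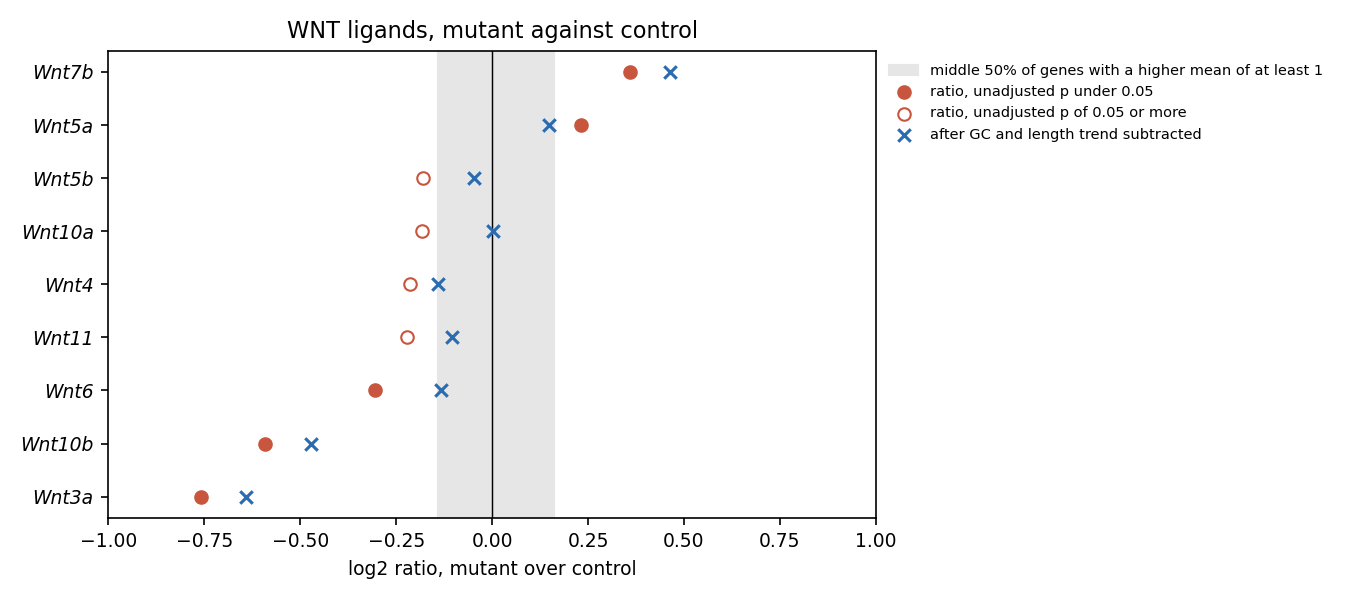
Log2 ratio of mutant over control for each WNT ligand, with filled circles where the authors' unadjusted p is under 0.05, crosses for the ratio after the trend on GC content and length was subtracted, and a grey band for the middle 50% of genes whose larger group mean reached 1 (-0.14 to 0.16). The band is of ratios before the subtraction. Wnt3a (-0.76) and Wnt10b (-0.59) lie farthest below 0 and Wnt7b (0.36) farthest above it.

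Wnt3a, a potent activator of beta-catenin signalling, had the lowest ratio. It stood at 17.6 in controls and 10.4 in mutants, 1.69-fold lower per the authors' deposited table (p = 0.000857, adjusted p = 0.0677). Wnt3a was the 1 ligand of the 9 with an adjusted p under 0.1, a level that 3.64% of all genes reached. By unadjusted p it stood at rank 223 of the 17631 genes. The gene lies on chromosome 11 (59248033 to 59290752, minus strand) with 4 exons in 1 annotated transcript.

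Wnt10b, another activator of beta-catenin and a known promoter of bone formation, followed at 11.98 in controls and 7.95 in mutants (1.51-fold lower, p = 0.0291, adjusted p = 0.208, per the authors' deposited table). Wnt10b was the scarcest of the 9 ligands as deposited and per kb of exon. It lies on chromosome 15 (98770712 to 98778150, minus strand). Wnt3a and Wnt10b thus had the ratios farthest below 1, and both belonged to the scarce group. All 9 ligands had a log2 ratio outside the middle 50% of genes whose larger group mean reached 1 (-0.14 to 0.16). After the GC and length subtraction described below, Wnt3a (-0.64), Wnt10b (-0.47) and Wnt7b (0.46) lay outside that same band. The band was not recomputed after the subtraction, and Wnt4 (-0.14) and Wnt5a (0.15) lay near its edges.

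Wnt6 (chromosome 1, 74771892 to 74785322) stood at 94.9 in controls and 76.8 in mutants (1.24-fold lower, p = 0.0296, adjusted p = 0.208, per the authors' deposited table). Wnt10a, whose loss in humans causes missing teeth, starts 6193 bases downstream of Wnt6 on the same strand (74791516 to 74804179). It stood at 90.7 in controls and 79.9 in mutants (log2 ratio -0.18, the authors' p = 0.111, adjusted p = 0.359). The neighbouring genes were thus both abundant and had log2 ratios of -0.30 and -0.18, and the difference between them was not tested. Wnt4 (chromosome 4, 137277489 to 137299726), a ligand of epithelial and kidney tubule development, stood at 140.4 in controls and 121.0 in mutants (log2 ratio -0.21, the authors' p = 0.186, adjusted p = 0.463).

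Wnt7b, an epithelial ligand that can act through the receptor pair Reck and Adgra2, had the highest ratio of the 9. It stood at 18.5 in controls and 23.7 in mutants (1.28-fold higher, p = 0.0232, adjusted p = 0.192, per the authors' deposited table). It lies on chromosome 15 (85535437 to 85582473, minus strand). The co-receptor gene Adgra2 stood at 173.7 and 193.7 (the authors' adjusted p = 0.460).

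Wnt5a, a ligand of ROR2 and of planar cell polarity, stood at 203.8 in controls and 239.2 in mutants (1.17-fold higher, p = 0.0192, adjusted p = 0.179, per the authors' deposited table). It lies on chromosome 14 (28504750 to 28527448, plus strand). Its close paralog Wnt5b (chromosome 6, 119432531 to 119544347) stood at 17.7 in controls and 15.6 in mutants (log2 ratio -0.18, the authors' p = 0.264, adjusted p = 0.544). Wnt11, which also signals without beta-catenin, stood at 15.2 in controls and 13.0 in mutants (chromosome 7, 98835112 to 98855195, log2 ratio -0.22, the authors' p = 0.0958, adjusted p = 0.338). The means of the 3 ligands best known for this kind of signalling thus did not share a direction. Wnt5b and Wnt11 had an unadjusted p above 0.05, and their log2 ratios were -0.05 and -0.10 after the GC and length subtraction described below.

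As deposited, Wnt5a was the largest term of the summed ligand signal. Over the 9 ligands the deposited means summed to 610.6 for controls and 587.5 for mutants, a log2 ratio of -0.06. With each group scaled to the sum of its means it was 0.08, but that scaling raised the log2 ratio of every gene by 0.14. Without Wnt5a the sums were 406.8 and 348.3, a log2 ratio of -0.22. Wnt5a, Wnt5b and Wnt11 together made up 38.7% of the 9 ligands' summed control means and 45.6% of their summed mutant means. Per kb of exon their share was 22.2% and 27.0%. Wnt3a, Wnt6, Wnt7b, Wnt10a and Wnt10b together made up 38.3% as deposited in the control and 33.8% in the mutant, and 57.3% and 53.4% per kb. These shares have no error and were not tested.

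Several ligands overlap another annotated gene on the opposite strand, and the sources used here do not say whether strand was used in counting. Fbxl14 overlaps Wnt5b on the other strand (23.97 in controls and 24.95 in mutants), and the antisense gene Gm2670 overlaps Wnt5a (1.07 and 1.46). Wnt6, Wnt7b and Wnt11 also overlap an opposite-strand antisense gene or pseudogene. Reads from such pairs cannot be told apart where exons overlap and strand was not used. Wnt3a, Wnt10b, Wnt10a and Wnt4 overlap no other annotated gene.

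The ratios over the whole table followed the GC content of the transcripts, and most WNT ligands are GC-rich. Among protein-coding genes whose larger group mean reached 1, the median log2 ratio went from 0.19 in the GC-poorest eighth to -0.13 in the GC-richest. In the GC-richest eighth (57.4% GC and above) 74.6% of genes had a lower mean in the mutant, 25.05% were lower at an unadjusted p under 0.05, and 1.83% were higher at that p. Of the 9 ligands, 6 fell in that eighth: Wnt10a (64.3% GC), Wnt6 (62.7%), Wnt11 (59.8%), Wnt7b (59.4%), Wnt10b (58.2%) and Wnt5b (58.1%). Wnt3a (57.04%) and Wnt4 (55.9%) lay in the next eighth, and Wnt5a, with 47.6%, on the GC-poor side of the median gene.

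When the trend on GC content and exonic length was subtracted, some of the ratios moved to near 0 and others kept most of their size. The log2 ratio of Wnt10a went from -0.18 to 0.00, that of Wnt5b from -0.18 to -0.05, and that of Wnt6 from -0.30 to -0.13. Wnt3a went from -0.76 to -0.64, Wnt10b from -0.59 to -0.47 and Wnt7b from 0.36 to 0.46. Wnt5a went from 0.23 to 0.15. After the subtraction 2 of the 9, Wnt7b and Wnt3a, had an unadjusted p under 0.05, as did 13.2% of genes, and none of the 9 passed with adjustment over all genes. Of 17561 genes with GC content and length, 29 passed an adjusted p of 0.05 after the subtraction. In the authors' analysis 139 of 17631 genes passed. The part of GC content in these ratios was not tested, and the subtraction would also remove real change that follows GC content.

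**Figure D3:**
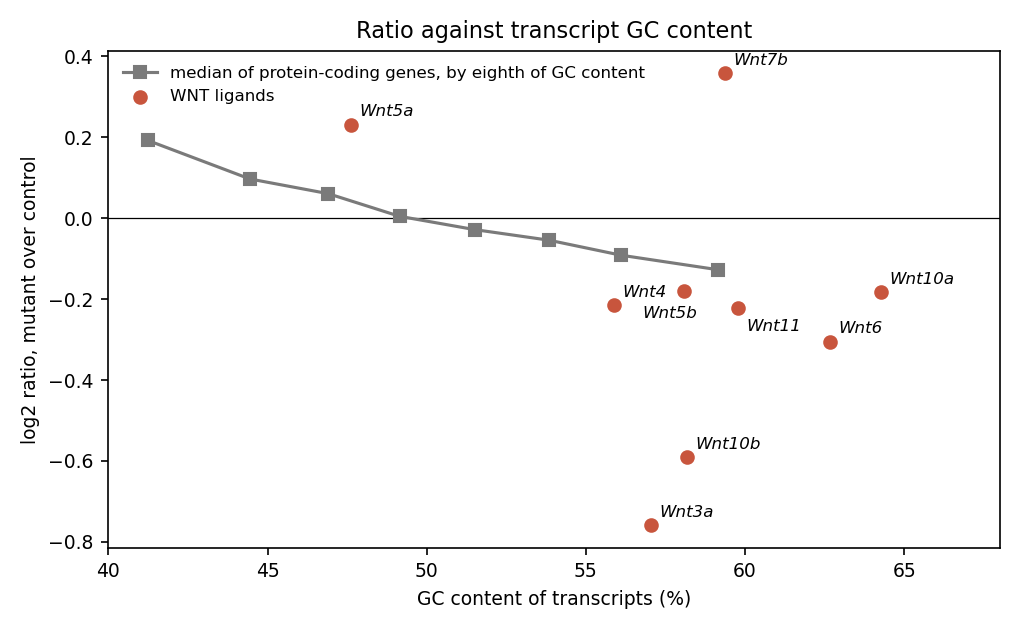
Log2 ratio of mutant over control against the GC content of the gene's transcripts for the 9 WNT ligands (red), with the median of protein-coding genes in each eighth of GC content (grey squares). The medians fall from 0.19 to -0.13 along the axis, Wnt3a and Wnt10b lie well below them, and Wnt7b, at 59.4% GC, lies well above.

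The promoters of Wnt3a and Wnt10b, the ligands with the lowest ratios, are shown with a search for motifs of the deleted factor and of 2 pathways. The search covered 250 bases before to 50 after each RefSeq start (GRCm38.p6) on both strands. The motifs were TGTGGT and TGCGGT for RUNX, CTTTGAA and CTTTGAT for TCF/LEF, the factors through which beta-catenin acts, and GACCACCCA for GLI. The 250 bases before the start are printed 5′ to 3′ on the gene's strand, with motif matches in capitals.
Wnt3a, chr11:59290752-59291001, minus strand: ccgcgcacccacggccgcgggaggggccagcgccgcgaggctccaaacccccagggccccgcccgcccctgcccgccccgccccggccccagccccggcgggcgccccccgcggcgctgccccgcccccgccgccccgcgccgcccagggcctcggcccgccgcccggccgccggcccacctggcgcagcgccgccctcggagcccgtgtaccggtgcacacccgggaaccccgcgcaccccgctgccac
Wnt10b, chr15:98778151-98778400, minus strand: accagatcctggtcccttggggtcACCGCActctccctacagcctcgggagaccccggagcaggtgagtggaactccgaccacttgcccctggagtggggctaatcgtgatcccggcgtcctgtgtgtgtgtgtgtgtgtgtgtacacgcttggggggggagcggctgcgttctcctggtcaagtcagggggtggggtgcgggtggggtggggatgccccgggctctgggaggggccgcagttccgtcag
The Wnt3a window held none of the motifs, and its GC content of 86.3% was above that of 99.95% of the 32851 promoters. The Wnt10b window held 1 RUNX match, ACCGCA (the reverse complement of TGCGGT), starting 226 bases before the start. Of all promoters, 22.4% held a RUNX motif, 8.65% a TCF/LEF motif and 0.253% the GLI motif.

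Entries were found for 6 of the 9 ligands, with 9 starts in all. A RUNX motif stood at 2 of the 9 starts, in Wnt10b and at 1 of 2 starts of Wnt11, and a TCF/LEF motif at 2, in Wnt11 and Wnt5b. No start held the GLI motif, and the windows of Wnt3a, Wnt4 and Wnt6 held no match. A match is a description of the letters in the window.

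Beside the 9, 5 further WNT ligands were measured, and none passed an adjusted p of 0.05 or an unadjusted p of 0.05. Wnt7a was the most abundant of them, with a control level of 14.8 per kb between Wnt5a and Wnt5b, and stood at 46.8 in controls and 39.5 in mutants (log2 ratio -0.24, the authors' p = 0.0945, adjusted p = 0.337). Wnt9a, which lies 16175 bases from Wnt3a and is transcribed away from it, stood at 5.73 and 5.98 (log2 ratio 0.06, the authors' adjusted p = 0.842), beside -0.76 for Wnt3a. Wnt2b, Wnt3 and Wnt8b had control means of 0.799, 0.448 and 0.212, where a ratio is poorly defined.

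Genes that act on the ligands were taken from lists and read against the same background. Values of these and of the downstream genes are given without the GC and length subtraction. Whether the genes that passed would still pass after it is not given here. Of 9 genes of WNT acylation and transport none passed an adjusted p of 0.05. Porcn, which acylates every WNT ligand at the serine shown above, stood at 14.1 in controls and 9.87 in mutants (1.43-fold lower, p = 0.00665, adjusted p = 0.121, per the authors' deposited table). The other 8 included Vps35, a retromer subunit that recycles Wls, with 76.9 in controls and 89.4 in mutants (the authors' adjusted p = 0.191), and Tmed5 with a log2 ratio of 0.19. The median log2 ratio of the list was 0.07, beside 0.00 over all genes.

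Among receptors none of 10 Frizzled genes and none of 8 co-receptors passed (median log2 ratios 0.06 and 0.03). Fzd5 stood at 56.7 in controls and 45.3 in mutants (the authors' p = 0.0252, adjusted p = 0.198). Fzd3 stood at 33.9 and 40.8, and Lrp6, the co-receptor for beta-catenin signalling, at 89.95 and 103.0 (the authors' adjusted p = 0.350). Of 9 R-spondin pathway genes none passed, with Rspo1 at 5.62 in controls and 3.02 in mutants (the authors' adjusted p = 0.0547) and Rspo3 at 0.958 and 1.73 (adjusted p = 0.111), and the receptor gene Lgr5 at a log2 ratio of 1.64. Rspo3 and Lgr5 had control means under 1, where a ratio is poorly defined. Of 13 secreted inhibitors 2 rose and 1 fell at an adjusted p under 0.05 in the authors' deposited table. Over all genes, 0.471% were higher and 0.318% lower at that threshold. Dkk2 stood at 11.3 in controls and 22.9 in mutants (log2 ratio 1.02, the authors' adjusted p = 0.0228). Sfrp4 stood at 6.46 and 11.2 (log2 ratio 0.79, the authors' adjusted p = 0.0318). Sfrp2 stood at 85.9 and 32.6 (log2 ratio -1.40, the authors' adjusted p = 0.0318).

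Downstream of the ligands, none of 17 genes of beta-catenin transduction, none of 14 beta-catenin targets and none of 13 planar polarity genes passed an adjusted p of 0.05. Their median log2 ratios were -0.09, -0.12 and 0.05. Tcf7, a nuclear partner of beta-catenin that is also its target, stood at 65.9 in controls and 47.7 in mutants (the authors' p = 0.0157, adjusted p = 0.167). Notum, which removes the acyl group from the ligands, stood at 34.9 and 18.2 (the authors' p = 0.000950, adjusted p = 0.0698). Lgr5, an R-spondin receptor and the target with the lowest p, stood at 0.912 and 2.84, a higher mean in the mutant (3.11-fold, the authors' p = 0.000839, adjusted p = 0.0670). At so low a control mean the fold is poorly defined. Among planar polarity genes, Prickle3 had a log2 ratio of -0.25 (the authors' adjusted p = 0.163) and Vangl2 of -0.17 (adjusted p = 0.276), while Prickle2 had one of 0.23 and 8 of the 13 a higher mean in the mutant.

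**Figure D4:**
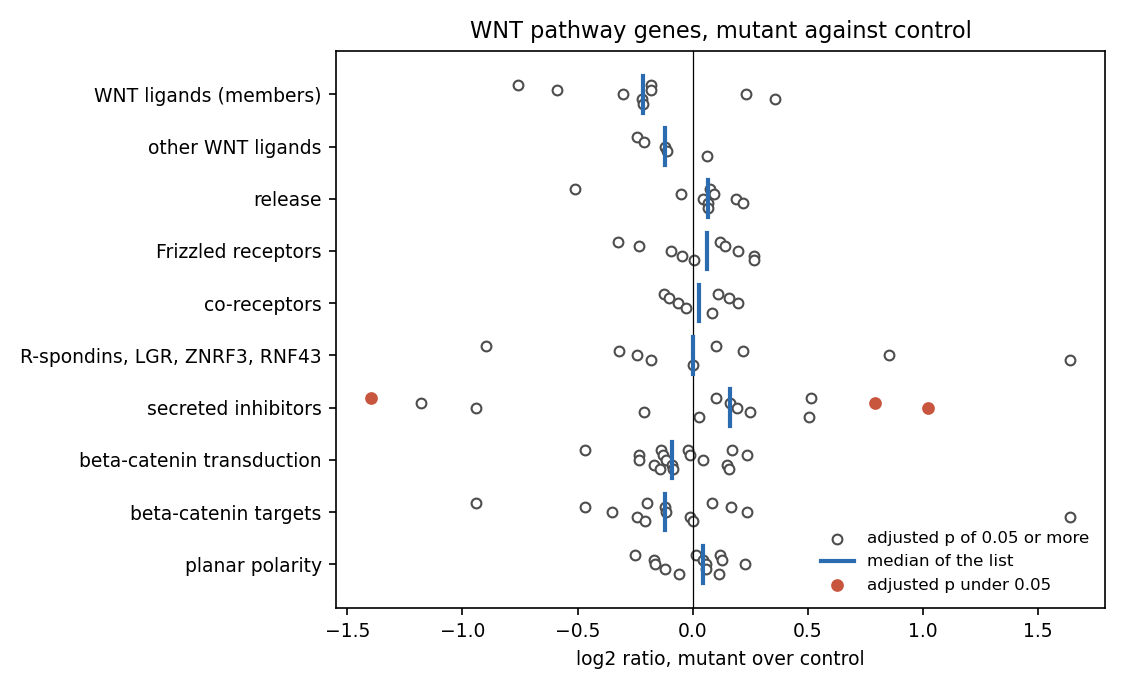
Log2 ratio of mutant over control for each measured gene of 10 WNT pathway lists, 1 circle per gene, filled where the authors' adjusted p is under 0.05, with a blue bar at the median of each list. The 3 filled circles are the inhibitor genes Sfrp2, Sfrp4 and Dkk2, and no ligand is filled.

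Marker genes of the cell types in the tissue were read in the same comparison, without the GC and length subtraction. Over all genes, 0.471% were higher and 0.318% lower in the mutant at an adjusted p under 0.05. At an unadjusted p under 0.05 the shares were 9.89% and 9.4%, and 49.4% of genes had a lower mean in the mutant. Of 10 dental epithelium markers none passed (median log2 ratio -0.09, summed means 3237 in controls and 3278 in mutants), with Krt5 at 1192 and 1222 and Krt14 at 973.2 and 923.5. Of 10 ameloblast markers 8 had lower means and none passed (median -0.50, summed means 262792 and 178215). Of 6 odontoblast markers 1 fell, Bglap, with a list median of -0.07, and 2 of 10 osteoblast markers fell, Sp7 and Bglap, with a median of -0.41. Bglap stands in both lists and is the same gene counted in each. Of 8 dental mesenchyme markers 1 rose, Prrx1, with a median of 0.09. None of 7 follicle and ligament markers passed (median 0.39). The 7 erythroid markers (median -1.09, summed means 946.5 and 425.8, 1 past the threshold, Hba-a1) and the 7 skeletal muscle markers (median -1.12, none past it) all had lower means in the mutant. The muscle markers had low control means of 0.386 to 1.98 (summed means 6.40 and 3.62), where ratios are poorly defined. The 6 nerve markers had a median of -0.46, the 5 vessel markers of 0.15 and the 5 leukocyte markers of 0.11, with none past the threshold. At an unadjusted p under 0.05, 7 of 7 erythroid, 5 of 10 osteoblast and 4 of 10 ameloblast markers were lower. So were 2 of 7 muscle, 2 of 6 nerve and 1 of 6 odontoblast markers. At that p, 4 of 7 follicle and ligament, 2 of 10 epithelium, 2 of 5 vessel and 2 of 5 leukocyte markers were higher. Of 8 dental mesenchyme markers 1 was higher and 1 lower. The part of these cell types in the ligand ratios was not tested.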

How the data were processed

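Libraries were read as 2 x 50 nt, per the series' design text. The submitters' processing notes name STAR 2.6.1d, Partek and mm10 and state no role for any of them. Annotation, counting settings, strand use, normalisation, low-expression filter and model: not given in the sources used here. The authors compared knockout (here mutant) with wild type (here control) in a gene-specific analysis, per the file headers. The group means and the total per gene are deposited as signal on a linear scale, read here as normalised. The total is a whole number for 0 of the 17631 genes (tolerance 1e-06), so it was not read as counts, and it equals 4 times the sum of the means for all of them (relative tolerance 1e-06). The deposited ratio divides the mutant mean by the control mean, and the deposited signed fold score restates it. The p-value is the authors', and their adjusted p equals the Benjamini-Hochberg adjustment over all genes.

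The planned count model could not be fitted without values per library, so the authors' adjusted p under 0.05 was used. Lengths, GC content and coordinates came from GENCODE M21 (GRCm38), matched by symbol for 17562 genes (99.6%). The GC and length trend was fitted to the signed z and to the log2 ratios of 13127 protein-coding genes whose larger group mean reached 1 (mgcv 1.9.3, R 4.3.3). It was checked on simulated data. Other values were computed with pandas 2.3.3 (Python 3.11.15). The named genes are the 9 ligands, every other measured WNT ligand, up to 3 genes of lowest p per pathway list, Runx2 and Gli1. Marker genes and the 3 called inhibitors come from the lists. The members and lists were chosen with earlier results of these data known. No protein sequences were used here.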

Additional observations from a re-analysis of the deposited data

How the results depend on the processing

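No ligand passed an adjusted p of 0.05 in the authors' analysis, after adjustment over the 14168 genes whose larger group mean reached 1 (lowest adjusted p = 0.0562, for Wnt3a), or after the trend on GC content and length was subtracted (lowest 0.172). With a threshold of 0.1 the count was 1. Of 54 alternative values of single ligands (2 pseudocounts, 3 scalings, the subtraction), 53 kept their direction. Wnt10a turned from -0.18 to 0.0034 on the log2 scale under the subtraction, and its lower mean has no clear direction. Scaling each group to the sum of its means shifted all log2 ratios by 0.14, which left Wnt10a at -0.05 and Wnt5b at -0.04. Scaling without the ameloblast markers shifted them by 0.02, and centring on the median by less. In the order of control levels per kb of exon, 2 of the 9 ligands held the same rank as deposited, and 7 of 9 per kb of the longest transcript, where Wnt11 and Wnt10b changed places. No paired analysis was possible because the table gives group means and no values per library, and for the same reason leaving out single replicates was not run. Depth per library is unknown, so no counting error can be given for the scarce ligands.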
